A study of Drosophila melanogaster with 30 samples.

Results

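The comparison described here asked in which genes the response of the male brain to social isolation differed between flies lacking the pheromone receptor gene Or67d and wild-type flies. It was the difference of differences (Or67d SH minus Or67d GH) minus (CS SH minus CS GH), where GH is group housing and SH is single housing, and it used 12 of the 30 libraries of the study, 3 in each of 4 groups. Each library held polyadenylated RNA of 30 pooled male brains, and the labels name the 3 libraries of a group as biological replicates. The wild type was Canton-S (CS), and the mutant males are labelled w+/Y, +/+ on the second chromosome and Or67dGAL4/GAL4, that is with the gene replaced on both homologues by an allele that encodes the yeast activator GAL4. No group carries GAL4 on a wild-type Or67d background, so the loss of the receptor, the presence of GAL4 and the strain background cannot be told apart. The age of the flies, the length of isolation and the hour of dissection are not given in the sources used here. The other 18 libraries, from Or47b, fru and dsx mutants in both housings, entered the same statistical fit, where they helped to estimate the spread and the effect of dissection class, and are compared with Or67d at the end.

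Or67d is an odorant receptor of sensory neurons in trichoid hairs of the antenna and detects cis-vaccenyl acetate, a lipid that males make and pass to females during mating and that signals the presence of other males. The neurons send their axons to the brain, where the signal restrains courtship between males and takes part in aggression and aggregation, so an isolated male receives little of this cue from others and a mutant male cannot detect it through this receptor. Isolation of flies is known to alter sleep, feeding and aggression. The brain itself was sequenced, not the antenna, and Or67d transcript was scarce. Grouped CS males had 0.323 ± 0.076 CPM (SD, n = 3, as for every mean below), where CPM is the count scaled to the effective library size, and isolated CS males had 0.312 ± 0.185, against 0 counts in each of the 6 Or67d libraries. In these libraries 3 counts correspond to 0.0529 to 0.0725 CPM, a limit that covers counting error only. The eye colour gene w had 9.88 ± 0.802 CPM in grouped CS males and 1.76 ± 0.211 in grouped Or67d males, although both genotypes are labelled wild type for it.

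The 12 libraries held 40262094 to 51209853 estimated counts each (median 45.4 M), and of 17895 genes 11269 had enough counts to be tested. Transcripts of the mitochondrial genome took 4.42% to 10.3% of the counts in CS GH, 2.99% to 4.56% in CS SH, 2.51% to 5.41% in Or67d GH and 2.86% to 6.8% in Or67d SH. The deposited batch table sorts libraries by dissection into AC and notAC, with no key to these names, and CS GH replicate 3 and CS SH replicate 2 were AC while all Or67d libraries were notAC. The fit carried a term for it. CS SH replicate 2 also stood apart in markers of other tissues. The summed level of 6 antennal genes was 63 CPM there and 5 to 9.81 CPM in the other 11 libraries, that of 13 fat body genes was 2436 against 967 to 1384 CPM, and that of 15 photoreceptor genes was 3308 against 1145 to 2190 CPM. Or67d SH replicate 1, labelled notAC, deviated from its group in the direction that separated AC from notAC libraries of Or47b and fru (r = 0.25 across genes, a description only, against 0.26 and 0.62 for the 2 AC libraries of CS). The counts without these libraries are given below.

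Of the 11269 genes, 20 (0.177%) had a housing change that differed between Or67d and CS at an adjusted p under 0.05. Every adjusted p below comes from the quasi-likelihood test of edgeR, adjusted over all 11269 genes by the method of Benjamini and Hochberg. For 16 genes (0.142%) the change was more negative in Or67d, and for 4 (0.0355%) it was more positive. The isolated and grouped males of CS differed in 210 genes (1.86%), those of Or67d in 3 genes (0.0266%). In CS all 16 genes with a negative difference had risen with isolation and all 4 with a positive difference had fallen. None of the 20 was called for housing in Or67d by itself, where their log2 changes lay between -0.86 and 0.59 with a median size of 0.21, against a median size of 0.79 in CS. In 17 of the 20 the fitted change had opposite signs in the 2 genotypes, and in the other 3 it was smaller in Or67d than in CS. The CS change is part of the tested difference, so its calls are no separate support for it.

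**Figure D1:**
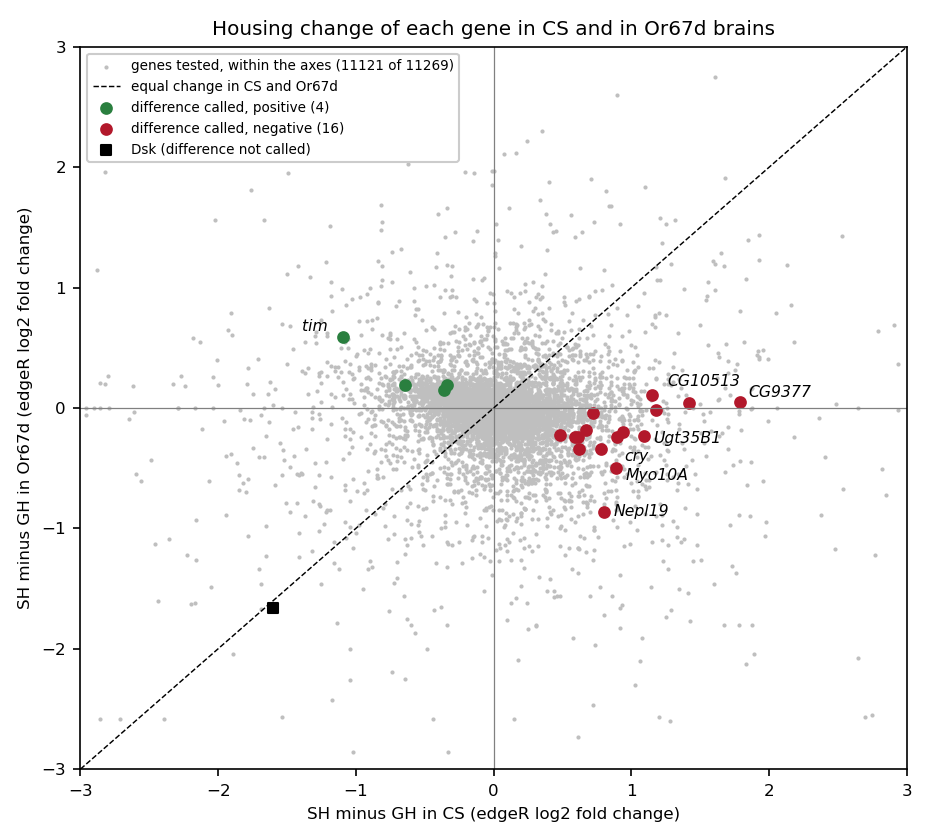
Each grey point is 1 of the 11121 genes that lie within the axes, placed by its edgeR log2 fold change from group to single housing in CS (x axis) and in Or67d (y axis), and the dashed line marks an equal change in both. The difference was called for the 16 red genes, right of 0 along the CS axis, and the 4 green genes, left of 0. They lie between -1.09 and 1.79 along the CS axis, with gol (-0.34) and asRNA:CR45683 (-0.36) nearest to 0. Along the Or67d axis they lie between -0.86 and 0.59, while Dsk (black square) lies on the dashed line.

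The CS and Or67d groups separated mainly at group housing. The group whose mean log2 level lay farthest from the other 3 was CS GH for 14 of the 20 genes, CS SH for 5 and Or67d SH for 1. The 3 grouped Or67d libraries lay wholly on one side of the 3 grouped CS libraries for 16 of the 20 genes (34.1% of all genes tested did so), and they overlapped the isolated CS libraries for 15 of the 20, so that 5 did not (20.6% of all genes). Isolated and grouped libraries did not overlap for 19 of the 20 genes in CS (17.6% of all genes) and for 9 in Or67d (6.03%), and isolated Or67d libraries were below the isolated CS ones for 9 (15.7% of all genes did not overlap in either direction). Grouped Or67d males were called different from grouped CS males in 19 of the 20 genes, against a background of 9.77% of genes, and isolated Or67d males from isolated CS males in 5 of the 20, against 5.64%. The libraries compared in all these contrasts and overlaps also enter the difference that chose the genes, so these shares are a description.

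The gene with the smallest adjusted p was CG10513 (FBgn0039311, 3R 25275790 to 25277212, Ensembl annotation of BDGP6), which the annotation names only by its number. It read 37.6, 39.5 and 36.5 CPM in the 3 CS GH libraries and 98.9, 113 and 95.1 CPM in CS SH. In Or67d it read 66.6, 66.5 and 79.2 CPM in GH and 84.8, 64 and 69.3 CPM in SH. All isolated CS libraries lay far above the grouped ones, whereas the Or67d libraries of both housings overlapped and lay between the 2 CS groups. The difference in log2 change was -1.38 ± 0.179 (SE, 95% interval -1.75 to -1.01, adjusted p = 0.000597).

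The clock genes gave a called difference in each direction. Cryptochrome (cry, FBgn0025680, 3R 19212154 to 19215442) encodes the blue-light receptor that resets the circadian clock by promoting the breakdown of the Timeless protein. It read 42.5, 44.6 and 42.9 CPM in CS GH and 75.8, 83.5 and 83.4 CPM in CS SH, and 102, 105 and 118 CPM in Or67d GH against 104, 81.2 and 88.7 CPM in Or67d SH. Isolated CS males and both Or67d groups were thus all above the grouped CS males, and the grouped Or67d males were above the isolated CS males as well. The difference was -1.14 ± 0.158 (95% interval -1.47 to -0.82, adjusted p = 0.000952). cry overlaps lncRNA:CR46393 and vib, and whether the counting used strand is not stated, so reads of overlapping genes cannot be told apart here or for the other overlapping genes below.

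timeless (tim, FBgn0014396, 2L 3493986 to 3508119), which encodes the partner of Period in the negative limb of the clock, moved the other way. Its levels were 136, 150 and 201 CPM in CS GH and 74.7, 95.4 and 58.9 CPM in CS SH, and 67.2, 78.5 and 96.4 CPM in Or67d GH and 76, 113 and 175 CPM in Or67d SH. Every grouped CS library was above every isolated one, while the Or67d housings overlapped, with 1 isolated library as high as the grouped CS males. The difference was 1.68 ± 0.324 (95% interval 1.01 to 2.35, adjusted p = 0.0309), and the call was lost without any one of 8 of the 12 libraries, at adjusted p up to 0.11. tim overlaps lncRNA:CR46495 and small nucleolar RNA genes.

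Of the 8 core clock genes tested, 2 were called in the difference, and their median difference was 0.23 on the log2 scale against -0.016 over all genes. vri, a repressor of Clk whose transcription Clk drives, averaged 60.1 ± 16 CPM in CS GH, 19.8 ± 4.92 in CS SH, 23.6 ± 6.96 in Or67d GH and 24 ± 12.8 in Or67d SH, and its difference was 1.63 (95% interval 0.76 to 2.49) with an adjusted p of 0.163. Clk, the activator that starts the cycle, averaged 5.91 ± 0.574, 10.7 ± 1.36, 11.4 ± 2.72 and 12.1 ± 2.59 CPM in the same order, and its difference was -0.76 (95% interval -1.21 to -0.32, adjusted p = 0.195). In CS, tim and vri fell and cry and Clk rose with isolation, which were 4 of the 8 genes against 1.86% of all genes. per and cyc, the other partners of these proteins, did not pass the test in the housing comparison of either genotype, with differences of 0.13 and -0.078. Clock transcripts vary with the hour in flies, and whether the groups were dissected at like hours was not tested.

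**Figure D2:**
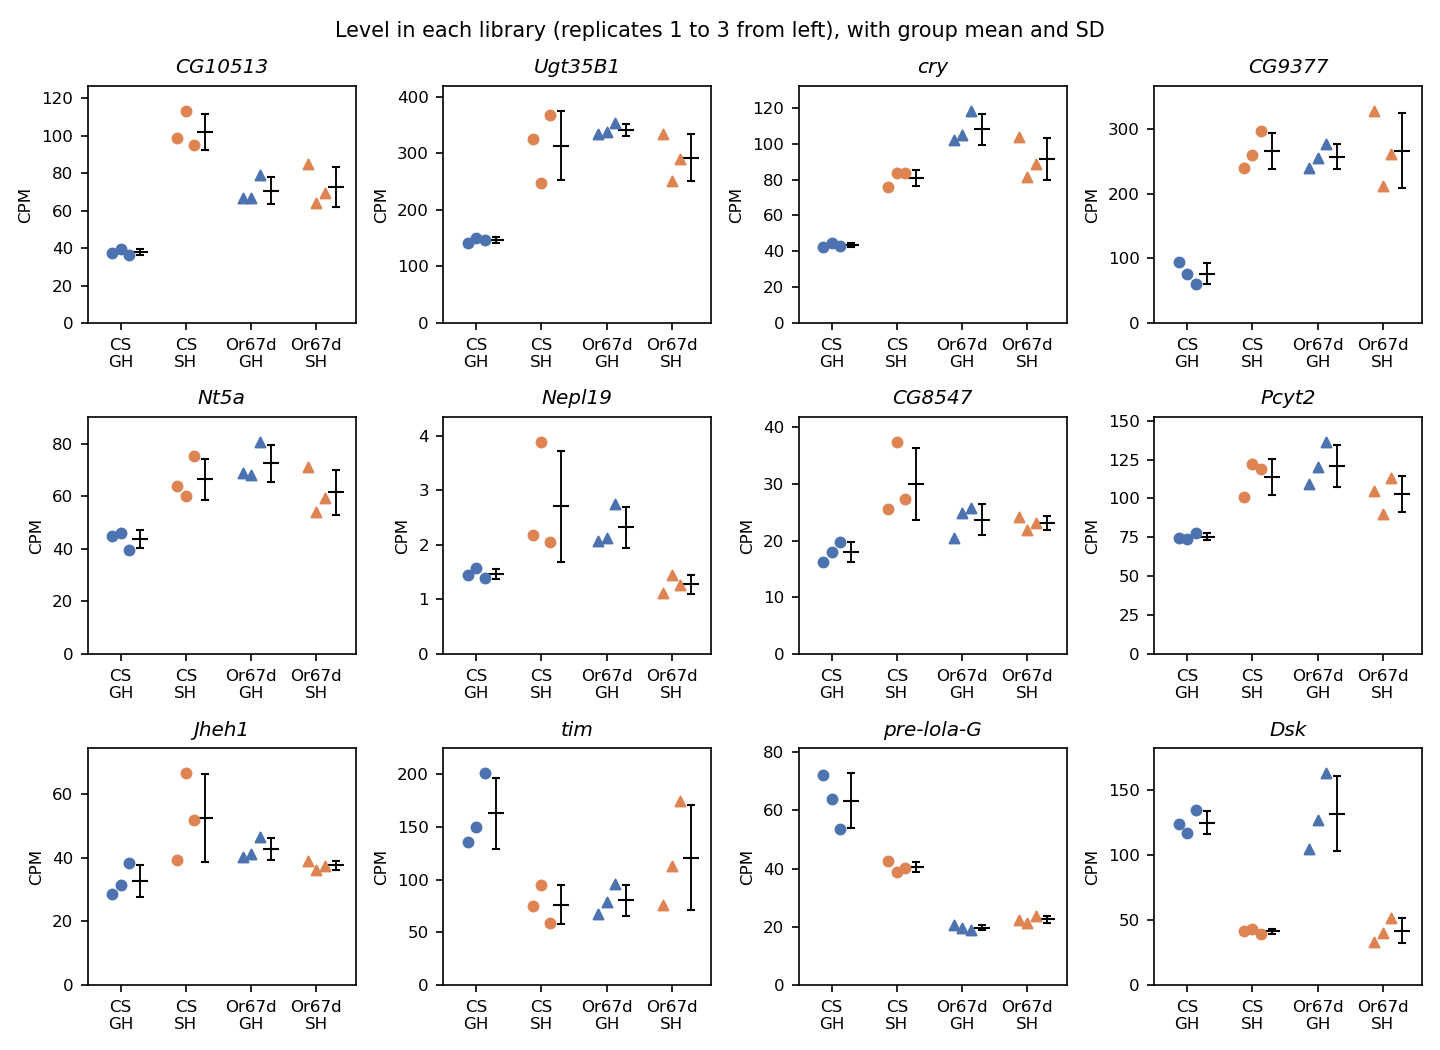
Level of 12 genes in CPM (y axis, from 0) in each of the 12 libraries, with circles for CS, triangles for Or67d, blue for group housing and orange for single housing, and a black bar for the mean and SD of each group. In Ugt35B1, CG9377, Nt5a and Pcyt2 the 3 blue circles lie below all other points and the blue triangles overlap the orange circles. The blue triangles lie below the orange circles in CG10513 and pre-lola-G and above them in cry. Dsk fell from group to single housing in both genotypes.

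Ugt35B1 (FBgn0026314, 3R 11168503 to 11170246) encodes a UDP-glycosyltransferase, an enzyme class that attaches sugars to lipophilic compounds and so makes them soluble. It read 142, 151 and 147 CPM in CS GH, against 325, 247 and 367 in CS SH, 334, 337 and 354 in Or67d GH and 334, 251 and 290 in Or67d SH. All Or67d libraries of both housings were above all grouped CS libraries and overlapped the isolated ones. The difference was -1.31 ± 0.172 (95% interval -1.67 to -0.96, adjusted p = 0.000597). Its neighbour Ugt35A1 (3R 11170817 to 11172664), of the same enzyme family, was read at lower levels and separated at single housing instead, with 3.25 ± 0.512 CPM in CS GH, 5.64 ± 0.807 in CS SH, 3.67 ± 0.419 in Or67d GH and 2.89 ± 0.193 in Or67d SH. The difference of Ugt35A1 was -1.13 (adjusted p = 0.0428).

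Among the 54 UDP-glycosyl and glutathione transferase genes tested, these 2 were called, 43 had a negative difference and 11 a positive one. Over all 11269 genes, 5926 had a negative difference and 5343 a positive one. The median of the list was -0.40 against -0.016 over all genes. In edgeR's test of the difference 14.3% of all genes had an unadjusted p under 0.05, a background for the lists below as well. The list had 6 members that rose with isolation in CS, against 0.95% of all genes, and 0 that fell, while in Or67d 0 were called by edgeR in either direction and 6 had an unadjusted p under 0.05 (3.02% of all genes did). In grouped males 15 members were higher in Or67d than in CS, against 5.13% of all genes, and 1 was lower. GstD1, a glutathione transferase induced by oxidative and chemical stress, averaged 126 ± 11.1 CPM in CS GH, 200 ± 28.2 in CS SH, 291 ± 39.1 in Or67d GH and 284 ± 44.4 in Or67d SH, with a difference of -0.70 (adjusted p = 0.202). Ugt36D1 and Ugt35E2 had differences of -0.60 and -1.09 at adjusted p of 0.0697 and 0.0783. The 70 cytochrome P450 genes, oxidases of the same detoxification route, had 0 calls in edgeR's test of the difference (16 at an unadjusted p under 0.05), 53 negative values and a median of -0.27. Cyp6a20, which has been tied to aggression in socially experienced flies, read 10.7 ± 2.81, 11.2 ± 3.01, 16 ± 1.17 and 14.7 ± 3.26 CPM in CS GH, CS SH, Or67d GH and Or67d SH, with a difference of -0.20 (95% interval -0.69 to 0.30, adjusted p = 0.764).

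Both called members of the 14 juvenile hormone genes encode juvenile hormone epoxide hydrolases, which break this hormone down. Jheh1 (2R 18853434 to 18855087) read 28.5, 31.3 and 38.2 CPM in CS GH, against 39.2, 66.5 and 51.7 in CS SH, 40.3, 41.2 and 46.5 in Or67d GH and 39.1, 36.2 and 37.5 in Or67d SH. Its highest value was that of CS SH replicate 2, and the difference of -0.85 (95% interval -1.18 to -0.53, adjusted p = 0.0229) became -0.80 without that library and was not called. Leaving out any one of 5 other libraries also ended the call, and the difference lay between -0.97 and -0.77 over all 22 settings. Jheh2, next to it (2R 18855767 to 18858245), averaged 64.9 ± 6.08, 90.5 ± 9.86, 93.4 ± 7.11 and 80.1 ± 9.41 CPM, and its difference was -0.70 (adjusted p = 0.0284). It lay between -0.76 and -0.61 over the settings, with the call lost without that library (-0.68) and without any one of 5 others. Both overlap asRNA:CR46485. The receptor genes Met and gce and the target gene Kr-h1 were not called, with differences of 0.21, 0.13 and -0.0042, and the median of the list was -0.14.

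CG9377, Nt5a and Nepl19 kept their call without any one of the 12 libraries. CG9377 (FBgn0032507, 2L 13359901 to 13361565) read 94.1, 75.8 and 60.2 CPM in CS GH and 241, 261 and 297 CPM in CS SH, and 240, 256 and 278 CPM in Or67d GH and 328, 212 and 262 CPM in Or67d SH. The grouped CS males stood alone at the low level, and the difference of -1.74 ± 0.275 (95% interval -2.31 to -1.17, adjusted p = 0.00577) was the largest in size of the 20. Nt5a (FBgn0035204, 3L 1304850 to 1307418), a 5′-nucleotidase gene that overlaps Ctr9, rose from 43.7 ± 3.49 to 66.4 ± 7.88 CPM in CS and read 72.5 ± 6.95 and 61.5 ± 8.63 CPM in Or67d GH and SH (difference -0.84, adjusted p = 0.00577). Nepl19 (FBgn0039612, 3R 28878024 to 28880122), of the neprilysin-like peptidases, read 1.44, 1.58 and 1.4 CPM in CS GH, against 2.19, 3.88 and 2.06 in CS SH, 2.07, 2.13 and 2.75 in Or67d GH and 1.11, 1.45 and 1.27 in Or67d SH. The isolated libraries lay above the grouped ones in CS and below them in Or67d, as they also did for Jheh1, Jheh2, Ugt35A1 and Dip-B, and the reverse held for asRNA:CR45683, gol and pre-lola-G. Its difference was -1.66 ± 0.282 (adjusted p = 0.00976), but its fall of 0.86 within Or67d was not called by itself (adjusted p = 0.285).

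The other genes with a negative difference had smaller or less stable values. CG8547 also kept its call without any one library (difference -0.76, adjusted p = 0.00976), with 18 ± 1.79, 30 ± 6.36, 23.7 ± 2.81 and 23.1 ± 1.16 CPM in CS GH, CS SH, Or67d GH and Or67d SH. Pcyt2, which makes an activated intermediate of phosphatidylethanolamine and overlaps Pcyt1, read 75.5 ± 2.2, 114 ± 11.5, 121 ± 13.4 and 103 ± 11.7 CPM (difference -0.83, adjusted p = 0.00976). The unconventional myosin gene Myo10A, the dipeptidase gene Dip-B, the acyl-CoA synthetase gene Acsx3, Achl (Achilles) and CG6126 had differences of -1.39, -0.96, -1.04, -1.20 and -1.14 at adjusted p of 0.0275 to 0.0428. In Myo10A, Achl and CG6126 the highest of the 12 libraries was CS SH replicate 2, at 5.84, 7.1 and 138 CPM. Without it their differences were -1.25, -1.08 and -1.07 and were not called, and the same loss of the call followed from leaving out other single libraries, so that the calls were lost in 7, 9 and 8 of the 12 leave-one-out fits.

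The remaining positive differences, from 0.51 to 0.83, rested on transcripts of shared loci in 2 of 3 cases. gol, which encodes the RING-type ubiquitin ligase Goliath, fell from 89.2 ± 0.255 to 70.8 ± 6.89 CPM in CS and read 65.5 ± 3.02 and 74.6 ± 2.39 CPM in Or67d GH and SH (difference 0.53, adjusted p = 0.0428). The antisense transcript asRNA:CR45683, within Tehao, read 15.5 ± 1.54, 12.2 ± 1.78, 10.3 ± 0.536 and 11.5 ± 0.388 CPM (difference 0.51, adjusted p = 0.0428). pre-lola-G, annotated within the lola locus, read 72.2, 63.8 and 53.4 CPM in CS GH, against 42.5, 38.9 and 40.3 in CS SH, 20.5, 19.5 and 18.9 in Or67d GH and 22.3, 21.4 and 23.7 in Or67d SH. The 4 groups of pre-lola-G did not overlap, and both Or67d groups were far below both CS groups (difference 0.83, adjusted p = 0.0432). This low level was not particular to Or67d. The means in GH and SH were 11.3 ± 0.782 and 9.95 ± 0.34 CPM in Or47b, 8.58 ± 1.92 and 7.62 ± 0.971 in fru, and 9.16 ± 0.973 and 10.1 ± 0.95 in dsx. The call of pre-lola-G remained in 2 of the 12 leave-one-out fits. With a positive difference, 6 more genes came next by p and did not pass, namely CG13055, CG14621, CG4757, Amy-p, ytr and glec, at adjusted p of 0.0697 to 0.1. Amy-p, an amylase gene, read 181 CPM in CS GH replicate 3 and at most 12.5 CPM in each of the other 11 libraries.

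Among the genes induced by infection, 7 of 13 Imd-type peptide genes and 11 of 22 Toll effectors tested fell with isolation in CS, and no member of either list was called in the difference. The Imd pathway responds to bacterial cell wall and drives antimicrobial peptide genes, and the Toll pathway drives Bomanins and other effectors. The summed level of 14 Imd-type peptide genes was 103, 58.5 and 78.3 CPM in grouped and 1.47, 6.01 and 1.15 CPM in isolated CS males, and it was 3.62, 2.21 and 3.26 in Or67d GH and 2.62, 1.4 and 2.35 in Or67d SH. Among these CS and Or67d groups, grouped CS males alone were high, and the Or67d groups overlapped each other and the isolated CS males. Grouped males of other mutants were not all low. The drosocin gene Dro averaged 37.2 ± 33.3 CPM in Or47b GH, 36.8 ± 5.69 in fru GH and 10.8 ± 13.2 in dsx GH, against 20.5 ± 3.11 in CS GH. Against the 7 of 13 that fell with isolation in CS stood 0.914% of all genes, and 6 were lower in grouped Or67d than in grouped CS males, against 4.64%. In edgeR's test of the difference 0 of the 13 were called and 5 had an unadjusted p under 0.05 (14.3% of all genes did), with all 13 fitted values positive. Their median fitted difference was 4.61, and it was 4.51 from group means in which a group with no counts was set to 3 counts over its libraries, as for 3 members.

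Metchnikowin (Mtk), an antifungal peptide gene, read 14.8, 6.92 and 10.5 CPM in grouped and 0.269, 0.966 and 0.256 CPM in isolated CS males, against 0.173, 0.168 and 0.352 in Or67d GH and 0.106, 0 and 0.627 in Or67d SH. Its difference of 4.78 (95% interval 2.24 to 7.32) had an adjusted p of 0.163. The difference of drosocin (Dro) was 6.17 (adjusted p = 0.202) and that of diptericin A (DptA) was 4.71 (95% interval -0.20 to 9.61, adjusted p = 0.467), and the 3 low groups held few counts. The 11 of 22 Toll effectors that fell with isolation in CS also stood against 0.914% of all genes, and 0 were called by edgeR in the difference (5 at an unadjusted p under 0.05), with a median of 0.83. Their summed level was 299 CPM in CS SH replicate 2, near the 256 to 339 CPM of CS GH, and 89.5 and 95.8 CPM in the other isolated CS libraries. The 29 tested genes of immune recognition and signalling had 0 calls in the difference (3 at an unadjusted p under 0.05) and a median of -0.073. Over all genes 14.3% had an unadjusted p under 0.05 in this edgeR test.

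**Figure D3:**
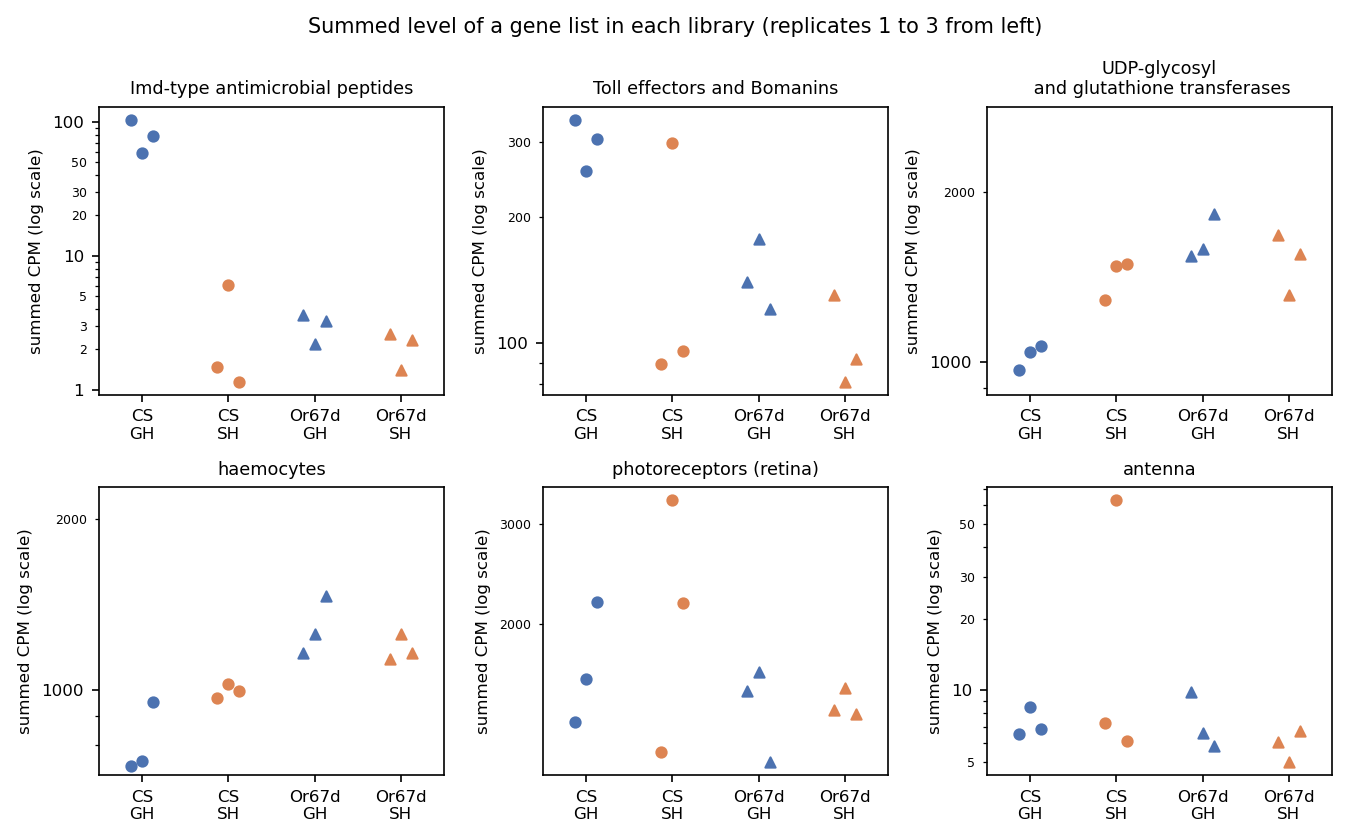
Summed CPM (y axis, log scale) of the genes of 3 lists (top) and of 3 sets of cell type or tissue markers (bottom) in each library, with circles for CS, triangles for Or67d, blue for group housing and orange for single housing. The Imd-type peptides were at 58.5 CPM or more in the 3 grouped CS libraries and at 6.01 CPM or less in the other 9, and the antennal genes were high in CS SH replicate 2 alone.

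Neuropeptide and insulin genes were described next, as signals known to respond to social experience. Dsk, which encodes drosulfakinin, a satiety peptide that also acts in aggression and courtship, read 124, 117 and 135 CPM in grouped and 41.4, 43.4 and 39.5 CPM in isolated CS males, and 105, 127 and 163 CPM in Or67d GH and 33, 40 and 51.9 in Or67d SH. Grouped and isolated libraries did not overlap in either genotype, and the change was -1.60 in CS and -1.66 in Or67d (adjusted p = 1.1e-05 and 1.11e-05). The difference was -0.063 with a 95% interval of -0.54 to 0.42. Besides Dsk (0.0266% of all genes were called), the genes called for housing in Or67d were Bcat, of branched-chain amino acid breakdown, and Hml (hemolectin), a marker of blood cells. Bcat rose by 1.06 in Or67d and 1.21 in CS on the log2 scale, with a difference of -0.15 (adjusted p = 0.837).

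The insulin-like peptide genes are transcribed in a small group of neurosecretory cells of the brain. Ilp5 read 16, 29.2 and 21.7 CPM in CS GH, against 66.2, 77.5 and 73.3 in CS SH, 28.8, 24.7 and 31.8 in Or67d GH and 41.7, 29.8 and 51.6 in Or67d SH. The isolated CS males stood above all other libraries, and the difference was -1.16 (95% interval -1.76 to -0.57) with an adjusted p of 0.127. Ilp3 averaged 15.7 ± 3.7, 31.9 ± 1.98, 40.7 ± 4.55 and 41.6 ± 8.79 CPM in CS GH, CS SH, Or67d GH and Or67d SH, with a difference of -0.97 (adjusted p = 0.221). Mip, a myoinhibitory peptide gene, averaged 68.2 ± 14, 131 ± 23, 132 ± 12.9 and 152 ± 27.5 CPM, with a difference of -0.75 (adjusted p = 0.184). In edgeR's test of the difference 0 of 38 neuropeptide genes were called (7 at an unadjusted p under 0.05), and 0 of 17 insulin genes (8 at an unadjusted p under 0.05). Over all genes 14.3% had an unadjusted p under 0.05 in that test. The median difference of the neuropeptide genes was -0.048.

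The 11 activity-regulated genes, which follow neuronal firing, had 0 calls in the difference, 10 positive values and a median of 0.42. In edgeR 5 of them had an unadjusted p under 0.05, against 14.3% of all genes. With isolation in CS 6 of them fell, against 0.914% of all genes. sr, the fly counterpart of the mammalian immediate early gene Egr, averaged 86.1 ± 21.6 CPM in CS GH, 31.9 ± 15 in CS SH, 46.2 ± 18.2 in Or67d GH and 31.3 ± 12.7 in Or67d SH (difference 0.85, 95% interval -0.13 to 1.83, adjusted p = 0.428). The 19 heat shock genes gave 0 calls in edgeR and 0 at an unadjusted p under 0.05. The 10 tested sex determination genes, among them fru and dsx with differences of 0.20 and -0.011, gave 0 calls (4 at an unadjusted p under 0.05). Of the genes of pheromone detection, Est-6, an esterase of the male reproductive tract and antenna, read 36.8 ± 3.06, 61.2 ± 40.5, 97.9 ± 6.18 and 59.7 ± 11.7 CPM (difference -1.19, adjusted p = 0.155), with 108 CPM in CS SH replicate 2.

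**Figure D4:**
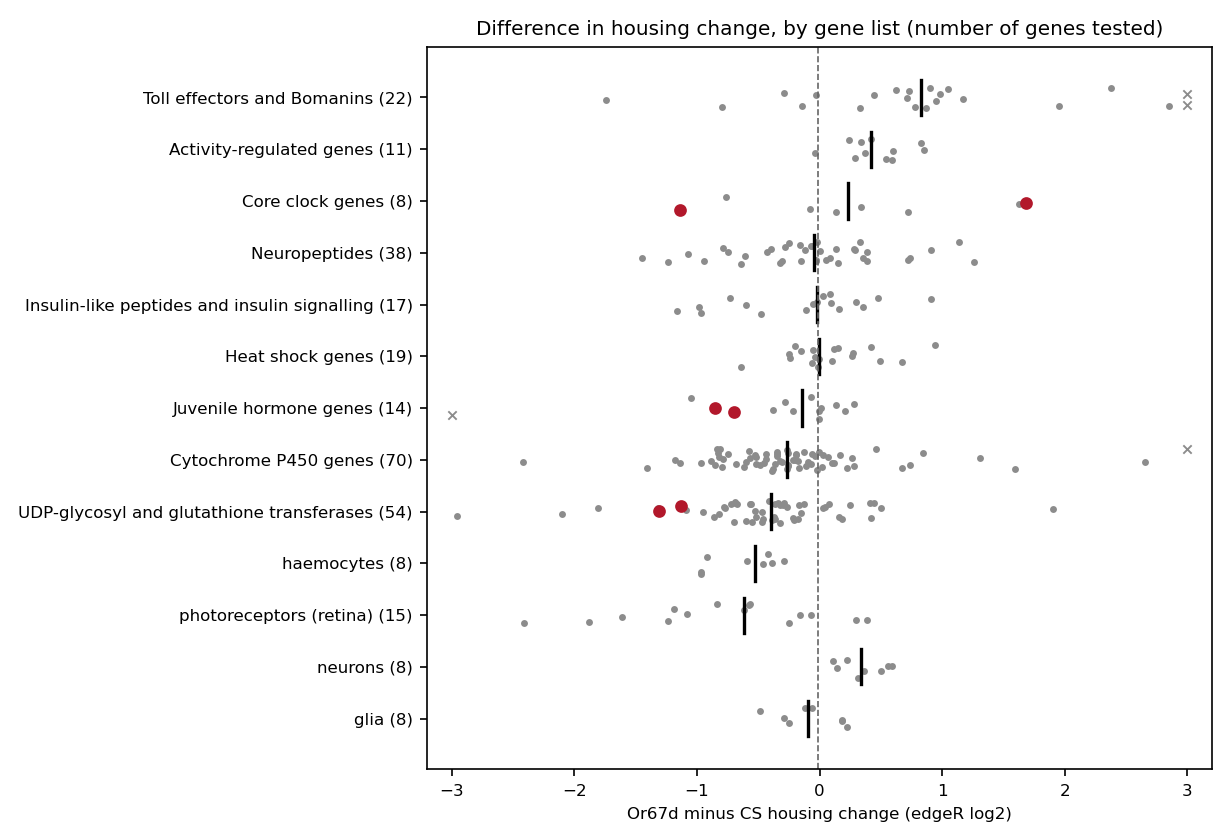
Difference in housing change between Or67d and CS (x axis, edgeR log2) for each tested gene of 9 gene lists and 4 sets of cell type markers (y axis, with the number of genes tested). Red points are called genes, black bars are medians, the dashed line is the median of all genes tested (-0.016), and crosses stand for values beyond 3 in size.

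Markers of cell types moved with the comparison, though no marker gene was called in it. Over all genes tested, 5926 of 11269 had a negative difference. In bulk brain RNA, fewer cells of a type and less RNA per cell cannot be told apart. All 8 tested blood cell (haemocyte) markers had a negative difference, with a median of -0.53 against -0.016 over all genes, and 5 of 8 were higher in grouped Or67d than in grouped CS males, against 5.13% of all genes. Their summed level was 732 to 953 CPM in CS GH, 965 to 1025 in CS SH, 1161 to 1465 in Or67d GH and 1134 to 1254 in Or67d SH. Hml read 25.9, 24.8 and 28.3 CPM in CS GH, against 20.6, 38.2 and 25 in CS SH, 38.2, 47.2 and 41.7 in Or67d GH and 25.3, 22.1 and 18.9 in Or67d SH. It fell in Or67d by 0.94 (adjusted p = 0.0181), and its difference was -0.97 with an adjusted p of 0.0852. Of 15 photoreceptor markers 13 had a negative difference, with a median of -0.62, and the rhodopsin ninaE averaged 112 ± 93.8, 459 ± 389, 49.4 ± 31.7 and 41.9 ± 34.5 CPM, so retinal RNA was present in these brains and varied most in CS SH. All 8 neuronal markers, elav and nSyb among them, had a positive difference with a median of 0.34, and glial markers had a median of -0.095. Of 5 tested antennal markers 4 were negative, with a median of -2.93 and 4 at an unadjusted p under 0.05, and these were high in CS SH replicate 2, where the odorant receptor partner Orco read 14.6 CPM against 3.11 to 4.63 CPM in the other 11 libraries. Fat body markers had 7 of 11 negative differences and a median of -0.38. The 15 tested mitochondrially encoded genes had 13 positive differences and a median of 1.43. The part of tissue makeup and of the mitochondrial share in the 20 calls was tested only by leaving out libraries and by a term for the mitochondrial share, with which 8 of the 20 calls remained.

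The number of calls varied with single libraries and with the model. Leaving out 1 library at a time gave 7 to 208 genes in place of 20, with 8 without CS GH replicate 1, 34 without CS GH replicate 2, 9 without CS SH replicate 2, 7 without CS SH replicate 3, 9 and 10 without Or67d GH replicates 2 and 3, and 208, 8 and 10 without Or67d SH replicates 1, 2 and 3. Of the 208 genes 161 were positive, and without Or67d SH replicate 1 and CS SH replicate 2 together the count was 6. Within the 24 notAC libraries 11 genes were called, of which 6 were among the 20, and with no term for dissection 6 were called, all among the 20. CG10513 and cry remained called in each of the 12 leave-one-out fits and in the 10 other settings, with differences between -1.51 and -1.25 for CG10513 and between -1.25 and -1.06 for cry. Ugt35B1, CG9377, Nt5a, Nepl19 and CG8547 remained called in all 12 leave-one-out fits, and Pcyt2 in 11. Of the 10 other settings, Ugt35B1 and CG9377 lost their call in 1, Nt5a in 2, Pcyt2 in 3, and Nepl19 and CG8547 in 4, where their adjusted p reached 0.373 and 0.628 while the difference kept its sign. The other 12 genes remained called in 2 to 6 of the 12.

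**Figure D5:**
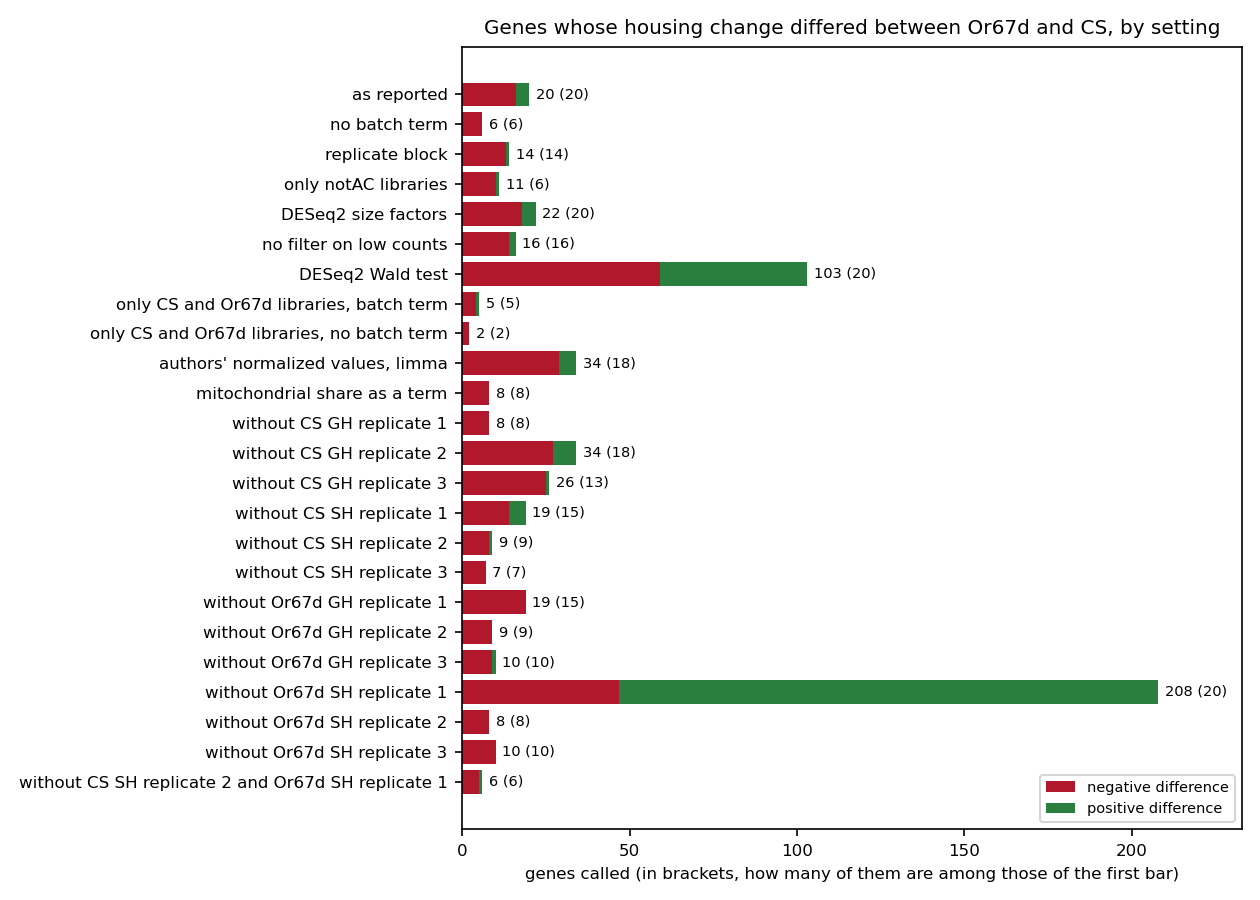
Number of genes called in the difference between Or67d and CS (x axis) under each setting (y axis), with negative differences in red and positive ones in green, and in brackets how many are among the 20 of the first bar. Without Or67d SH replicate 1 the count was 208, and elsewhere it lay between 2 and 103.

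Over the wider set of genes that responded to isolation in CS, the changes of Or67d showed no common sign in the fit reported here. Of the 107 genes that rose in CS, 50 had a positive change in Or67d (46.7%, median log2 -0.01), where 47.6% of all genes were positive, and 1, Bcat, was called. Of the 103 that fell, 48 had a negative change (46.6%, median 0.02), and 1, Dsk, was called. The share among the genes that fell depended on the libraries and the model, from 21.8% to 84.6%. It was 84.6% of 26 genes within notAC, 83.3% of 24 without CS SH replicate 2, 70.8% of 267 without Or67d SH replicate 2, 70.4% of 54 without CS GH replicate 3, and it was 25.3% of 261 without CS GH replicate 2, 22.4% of 263 without CS SH replicate 1 and 21.8% of 239 without Or67d SH replicate 1. The share among the genes that rose stayed between 32.4% and 62.2% in the settings tried. The Or47b mutant lacks another pheromone receptor and shares no library with CS. In it 99 of the 107 genes that rose in CS had a positive change (92.5%, median 0.25), where 53.3% of all genes were positive. Of the 103 that fell, 78 had a negative change in Or47b (75.7%). In fru the numbers were 56 and 89, and in dsx 55 and 57, where 50.6% and 48% of all genes were positive. These shares varied with the model as well. With no dissection term, 21 genes rose and 25 fell in CS. The shares with the same sign were then 100% and 88% in Or47b, 23.8% and 80% in fru, and 66.7% and 92% in dsx. The mutants were not tested against each other on these shares.

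Against the other mutants the response of Or67d was not set apart gene by gene. The Or47b, fru and dsx differences from CS, which share the CS libraries with the Or67d difference, had 2 (0.0177%), 25 (0.222%) and 1 (0.00887%) called genes. Since the CS change is in all of them, they are not separate results. For CG10513 the difference from CS was -1.38 in Or67d, -1.04 in Or47b, -1.89 in fru and -1.53 in dsx, and for cry it was -1.14 in Or67d, -0.67 in Or47b, -0.99 in fru and -0.70 in dsx. For CG10513 the housing change was 1.42 in CS, 0.039 in Or67d, 0.38 in Or47b, -0.47 in fru and -0.11 in dsx. For cry it was 0.90, -0.24, 0.23, -0.10 and 0.20 in the same order, and for CG9377 1.79, 0.05, 0.46, -0.96 and 0.90. In group housing and the same order, CG10513 averaged 37.9 ± 1.53, 70.7 ± 7.31, 92.9 ± 5.17, 105 ± 30.3 and 54.7 ± 0.407 CPM. The grouped means of cry were 43.3 ± 1.13, 108 ± 8.5, 61.1 ± 8.84, 79.1 ± 7.44 and 47.1 ± 1.79 CPM, and those of CG9377 76.7 ± 17, 258 ± 19, 143 ± 11.2, 713 ± 107 and 21.2 ± 2.43. A grouped mean above that of CS was thus not particular to Or67d, though CG9377 was lower in dsx. The Or67d housing change minus the mean of those of the other 3 mutants was called in 0 genes by edgeR (0%), with 284 genes (2.52%) at an unadjusted p under 0.05 and 9 called by DESeq2. None of the 20 genes was called in it, and their values there ranged from -0.85 to 0.75. The genes of smallest p were Hml (-0.79), CG6908, CG34331 and Obp44a on the negative side and GNBP-like3 on the positive side, all at an adjusted p of 0.526. Against Or47b alone, a comparison added after the data were seen, 1 gene was called by edgeR (0.00887%), GNBP-like3, an immune-induced gene, and none of the 20, while 325 genes (2.88%) had an unadjusted p under 0.05. GNBP-like3 averaged 3.72 ± 1.56 CPM in Or47b GH and 0.00856 ± 0.0148 in Or47b SH, and 0.981 ± 0.236 and 0.575 ± 0.33 in Or67d GH and SH. The call thus rested on near-absent counts in Or47b SH, which also enter the mean of the other 3 mutants. The Or67d change of -0.77 was not called.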

How the data were processed

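RNA of male fly brains was measured in 30 libraries, 3 in each of 10 groups of genotype and housing. The deposited estimated counts per feature were not scaled between libraries, and the submitters' processing notes name STAR, Salmon, DESeq2 and build BDGP6 with no roles or versions. The authors' normalized table, a signal scaled between libraries by a method not given in the sources used here, served for 1 alternative. The deposited batch table gave the dissection class.

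Estimated counts (11.9% were not whole) were rounded. Rows that are not genes (6383 features, 0.6% to 1.38% of counts) were left out. edgeR 4.0.16 in R 4.3.3 fitted 10 group means and the dissection class to all 30 libraries after filterByExpr and TMM scaling, with quasi-likelihood F tests and Benjamini-Hochberg adjustment over 11269 genes. The script was first tested on simulated counts. Total counts of the 12 CS and Or67d libraries were 40262094 to 51209853, and 3 counts, the limit set by a count of 0, are 0.0529 to 0.0725 CPM. Means are of CPM with the SD, and 95% intervals are of fitted log2 values. The labels call the libraries of a group biological replicates of 30 brains each, with no more on their origin. Symbols of 17855 gene rows matched the annotation, from which coordinates (BDGP6, Ensembl) were taken.

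The genes named are up to 15 in each direction by adjusted p among those called, the next by p up to 10 in a direction, members of the lists that were called in any of 5 comparisons (up to 6 per list), and Or67d, w and Dsk. Achl, the last of the 16 called negative genes, and the other genes named with values were added after their values were seen. The comparison, lists and markers were chosen with earlier results of these data known. DESeq2 1.42.0, limma 3.58.1 (log2 of the normalized value plus 1), other filters, scalings and library sets were the alternatives.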

Additional observations from a re-analysis of the deposited data

Results flagged for a closer look

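In 20 genes the housing change differed between Or67d and CS by a test of the difference itself, the interaction in edgeR's quasi-likelihood fit, with 3 libraries in each of the 4 groups. The negative log2 differences were -1.38 for CG10513, -1.31 for Ugt35B1, -1.14 for cry, -1.74 for CG9377, -0.84 for Nt5a, -1.66 for Nepl19, -0.76 for CG8547 and -0.83 for Pcyt2. They were -0.85 for Jheh1, -1.39 for Myo10A, -0.70 for Jheh2, -1.14 for CG6126, -1.13 for Ugt35A1, -0.96 for Dip-B, -1.04 for Acsx3 and -1.20 for Achl. The positive ones were 1.68 for tim, 0.51 for asRNA:CR45683, 0.53 for gol and 0.83 for pre-lola-G. The groups held 3 libraries each, too few to test single libraries as outliers.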

How the results depend on the processing

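In place of the 20 genes whose housing change differed between Or67d and CS, 14 were called with a replicate block, 6 with no dissection term, 11 within notAC libraries, 103 by DESeq2's Wald test, 5 and 2 in the 12 CS and Or67d libraries with and without the dissection term, 34 by limma on normalized values, 8 with a term for the mitochondrial share and 6 without CS SH replicate 2 and Or67d SH replicate 1. Leaving out 1 library gave 7 to 208. The 210 genes of CS housing became 46, 70, 663, 47, 22 and 90 with no dissection term, within notAC, by DESeq2, in the 12 libraries with and without the term, and with the mitochondrial share, 54 without both libraries, and 52 to 436 leaving out 1. The 3 of Or67d housing became 1, 7, 18, 1, 1 and 9 with no dissection term, within notAC, by DESeq2, in the 12 libraries with and without the term, and by limma, 1 without both libraries, and 1 to 6 leaving out 1. The 1101 genes of Or67d against CS in GH became 608 with no dissection term and 641 and 520 in the 12 libraries, with 660 to 1288 leaving out 1, and the 636 in SH became 355 and 392. With no dissection term Or47b's difference had 0 calls and fru's 8, with the replicate block Or47b's had 0, within notAC Or47b's had 1, dsx's 4 and Or67d minus Or47b 0, and with no filter dsx's had 2. DESeq2 called 21, 100 and 101 genes for Or47b, fru and dsx, 9 for Or67d minus the other mutants and 8 for Or67d minus Or47b. The difference of Dsk, near 0, turned to 0.12 without Or67d GH replicate 3 and to 0.08 without Or67d SH replicate 1 or both libraries, with -0.25 as its lowest value. The cause of these shifts was not tested. Of the single values, 3190 kept direction and side of the threshold, 497 fell short of it, 56 passed it, 16 moved and 3 turned. Same-numbered libraries deviated together with r of -0.281 to 0.319 over 18 pairs, against -0.361 to 0.385 for other pairs. The ranges overlap and dissection class was not removed from them, so they cannot decide whether the numbers pair the samples. The setting without both libraries and the comparison with Or47b alone were chosen after seeing the data. With 3 libraries a group and 0 to few counts in 3 groups, the antimicrobial peptide genes have wide intervals.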

Other observations

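Of 18 tested genes of feeding and lipid use, 4 rose and 1 fell with isolation in CS, against 0.95% and 0.914% of all genes. The gene that fell was Amy-p, with 3.15, 1.69 and 181 CPM in the CS GH libraries. Among those that rose, Acsx2 read 9.87 CPM in CS SH replicate 2 and 0.869 and 0.931 CPM in the other isolated CS libraries. None of the list was called for housing in Or67d by edgeR (0 at an unadjusted p under 0.05). Acsx3 alone was called in the difference between the genotypes. The median difference of this list was -0.14 on the log2 scale, against -0.016 over all genes. The 25 tested genes of biogenic amine synthesis, transport and reception, which carry dopamine, serotonin and octopamine signals, had 0 calls in edgeR's test of the difference. Of them 6 had an unadjusted p under 0.05 (14.3% of all genes did), 19 had positive values and the median was 0.14. Over all 11269 genes, 5343 values were positive and 5926 negative. The 14 eye pigment genes and the 4 tested Turandot stress genes also had 0 calls by edgeR, with 2 and 0 at an unadjusted p under 0.05. Muscle markers had 10 of 12 negative differences with a median of -0.53, and markers of trachea and epidermis 4 of 6 with a median of -0.38, and none of either set was called.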
